A study of Homo sapiens with 6 samples.

Results

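LINC-named genes are long intergenic noncoding RNA genes that carry a numbered symbol because no functional name had been given to them. The members described here were chosen by name (LINC followed by digits only) and by measured counts, with at least 60 reverse-stranded counts summed over the 6 samples. Of 553 genes with such a name among the 57820 genes of the tables, 172 met the threshold, 216 had 1 to 59 counts and 165 had 0 counts in every sample. Just inside the threshold were LINC00961 with 61 and LINC00907 with 62 counts, and just outside it were LINC00028 with 59 and LINC00346 with 58.

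Long noncoding RNAs are transcripts that resemble messenger RNAs in being capped, often spliced and usually polyadenylated, but that do not code for a large protein. Some act in the nucleus on chromatin near their own locus, some bind proteins or other RNAs in the cytoplasm, and for many no function is known. Their expression is often restricted to few cell types, and many have been studied in tumours because their level differs from that of normal tissue. ARID1A is the DNA-binding subunit of the canonical BAF form of the SWI/SNF complex, which moves nucleosomes at enhancers and promoters.

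The 6 samples were untreated AID-DIvA cells, a U2OS osteosarcoma derivative with an inducible AsiSI endonuclease that can be degraded through an auxin-inducible degron. The enzyme was not induced in these samples, so they compare genotypes without added breaks. Each genotype, WT and ARID1A-KO, had 3 samples, which the labels number from 3 to 5. The knockout was made with 2 crRNAs against ARID1A, and the labels do not say whether the 3 ARID1A-KO samples came from a single clone, so the loss of ARID1A and the history of a clone cannot be told apart. The study calls its experiments independent biological replicates, while the labels give replicate numbers only, and the p-values measure the spread between these samples.

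Depth lay between 54512105 and 84088708 reverse-stranded counts in a sample, so a level of 1 CPM (counts scaled to library size) rested on more than 50 counts. ARID1A itself was at 166, 178 and 177 CPM in WT and at 25.1, 27.5 and 25.2 CPM in ARID1A-KO, a log2 fold change of -2.74 ± 0.07 (SE, n = 3 per genotype, adjusted p = 9.66e-08). All fold changes below are ARID1A-KO over WT on a log2 scale from edgeR's quasi-likelihood test, and adjusted p-values are Benjamini-Hochberg values over the 19599 genes tested. That test gives no SE. The SE was derived as the size of the log2 fold change divided by the square root of the F statistic, and is approximate. A gene with an adjusted p under 0.05 is called. Of the mesenchymal markers, SPARC, VIM, COL1A1, RUNX2 and ALPL were at 1 TPM (counts per length, scaled to the library) or more in every sample, while the other 4 of 9, SP7, IBSP, BGLAP and COL1A2, were below 1 TPM in every sample. All 3 blood and both measured endothelial markers, and 2 of 3 neural markers, stayed below 1 TPM. RBFOX3, the other neural marker, was at 0.519 ± 0.0136 TPM in WT and 5.61 ± 0.865 TPM in ARID1A-KO (SD, n = 3), and of 4 epithelial markers only EPCAM was at 1 TPM or more throughout, with 6.72 ± 1.09 and 9.08 ± 0.215 TPM. Of the markers tested, RBFOX3, EPCAM and VIM rose, while ALPL (-2.45), SPARC (-0.89), COL1A1 (-0.47), KRT14 (-3.4), CDH1 (-1.19) and PTPRC (-2.1) fell, and the part of such shifts in the results below was not tested. In bulk RNA, fewer cells of a type and less RNA per cell cannot be told apart.

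LINC genes made up a small part of the RNA, between 0.159% and 0.167% of the counts in WT and between 0.154% and 0.162% in ARID1A-KO samples. Per length, the median member was at 1.94 TPM, against 8.59 TPM over all genes tested and 15.4 TPM over protein-coding genes tested. Of the 172 members, 114 had a mean of at least 1 TPM, 41 of at least 10 TPM and 11 of at least 50 TPM. The 6 members with the most counts held 41.2% of all counts of the members. The median exonic length was 2456 bases, and 15 members had a single exon.

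The 6 members at the highest TPM did not move together. LINC00973 was at 225 TPM on average in WT and 159 TPM in ARID1A-KO, the highest level of any member in both genotypes. Its normalised counts were 56.7, 77.4 and 63.7 CPM in WT and 49.6, 43.5 and 46.9 CPM in ARID1A-KO, so the genotypes did not overlap, and it fell by 0.50 ± 0.11 on the log2 scale (adjusted p = 0.00641). DCBLD2, the nearest coding gene, fell by 0.48, and so did the neighbours within 5 Mb, at a median of -0.37. Taken relative to those neighbours, LINC00973 was no longer called. LINC00657, now named NORAD, is an abundant cytoplasmic RNA that binds Pumilio proteins and is linked to genome stability. It was at 137 ± 13.9 TPM in WT and 125 ± 7.83 TPM in ARID1A-KO. Its CPM values were 230, 240 and 198 in WT and 200, 200 and 210 in ARID1A-KO, overlapping between genotypes, and the log2 fold change of -0.13 ± 0.08 was not called (adjusted p = 0.223). It was called lower relative to its neighbours within 5 Mb, whose median was 0.22 (-0.35, adjusted p = 0.00809), and without WT replicate 5 (-0.21, adjusted p = 0.0449). LINC00958 rose from 94.2 to 135 TPM, and INAFM2 (LINC00984 in the tables) from 79.1 to 107 TPM, the latter by 0.44 ± 0.12 (adjusted p = 0.0164). The INAFM2 call was lost in 4 of the 6 fits that left out 1 sample (WT replicate 3 or 5, ARID1A-KO replicate 3 or 4), with log2 fold changes from 0.36 to 0.43. LINC00162 (also known as PICSAR, first described in squamous cell carcinoma) was at 108 and 97.7 TPM, and SMIM30 (LINC00998), now annotated as the gene of a small membrane protein, at 93.7 and 91.5 TPM. Neither of these was called, with log2 fold changes of -0.13 ± 0.11 and -0.03 ± 0.06. Relative to its neighbours, SMIM30 was called higher (0.21, adjusted p = 0.0306).

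Loss of ARID1A went with changes in LINC genes in both directions. Of the 172 members, 169 had enough counts to be tested (LINC00029, LINC00623 and LINC00961 did not), and 67 of these were called, which is 39.6%, where 36.2% of all genes tested were called. Higher in ARID1A-KO were 32 members, where 17.8% of all genes were called higher, and lower were 35, where 18.4% of all genes were called lower. By these shares, LINC genes were called about as often as other genes. The CPM of the 3 WT and 3 ARID1A-KO samples did not overlap for 89 members (52.7%), against 49.5% of all genes tested. The median log2 fold change of the members was 0.02, against 0.007 over all genes tested, so there was no common shift.

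LINC genes were at a lower level than the average gene, and over genes of all levels their changes were larger. The median size of the log2 fold change, regardless of direction, was 0.47 over the members, 0.27 over all genes tested and 0.24 over coding genes, with median SEs of 0.2, 0.12 and 0.09. Called with a change of 2-fold or more were 27 members (16%), against 10.8% of all genes tested, 10 of them higher and 17 lower. The other lncRNA genes of the annotation had 16.1% of 2894 tested genes in that class, close to the share of the members, and 29.9% called. Genes with antisense names had 9.29% of 323 in that class and 29.7% called. At a mean log2 CPM of -1 or less, 18 of 46 members were called (39.1%, all by 2-fold or more), against 24.4% of all genes at that level, of which 21.9% were called by 2-fold or more. From -1 to 0, 40% of members and 31.7% of all genes were called, and 16% and 19.4% by 2-fold or more. From 0 to 2, the shares were 36.6% and 37.8%, and 7.32% and 17.3% by 2-fold or more. Above a log2 CPM of 2, 42.1% of members and 39.7% of all genes were called, and 3.51% and 5.02% by 2-fold or more. The share of large changes was thus above that of all genes at the lowest level and below it at the other 3 levels. The shares at those 3 levels rest on only 4 of 25, 3 of 41 and 2 of 57 members, too few for a firm difference. At the lowest level a gene could enter the test through the genotype where it was high, and then shows a large change. LINC00355 did so, with 51, 60 and 45 counts in WT and 0 in every ARID1A-KO sample. Members also had to reach 60 counts, which was not asked of all genes. The difference at that level is therefore not read as a trait of LINC genes.

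**Figure D1:**
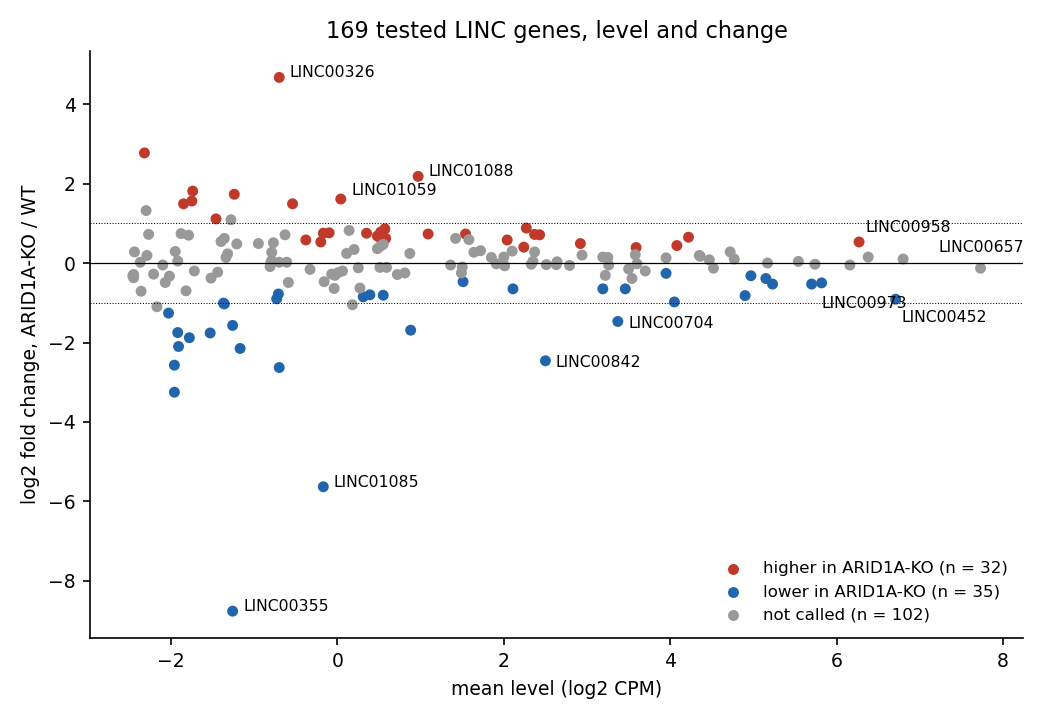
Log2 fold change (ARID1A-KO over WT) of each of the 169 tested LINC genes against its mean level in log2 CPM, with called genes in red (32 higher) and blue (35 lower), genes not called in grey, and dotted lines at 2-fold. The larger changes lie at low levels on the left, and members above a log2 CPM of 4 changed by less than 2-fold.

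Of the 102 tested members that were not called, 37 had an approximate 95% interval (1.96 SE on each side) within 0.5 of 0 on the log2 scale. The multiple of 1.96 is that of a normal distribution, and with 3 samples per genotype such intervals are too short. A larger change was thus outside a 95% interval for at most these 37. The other members not called had wider intervals, among them 4 with fitted changes of 2-fold or more. Leaving out each sample in turn, 45 of the 67 called members were called in all 6 fits, 27 of them lower and 18 higher, and no called member changed sign.

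Among well-measured members that fell, the largest fall was that of LINC00842, at 9.85, 7.88 and 11.0 CPM in WT and 1.69, 1.4 and 2.08 CPM in ARID1A-KO. Every WT sample was well above every ARID1A-KO sample, and the log2 fold change of -2.46 ± 0.18 had the smallest adjusted p of the members that fell (adjusted p = 1.71e-05). LINC00842 lies at chr10:47011753-47174018 (GRCh37, minus strand), overlaps ANXA8L1 on its own strand, and shares near-identical stretches with ANXA8 and 2 unnamed genes, so reads may be divided among these copies. LINC00341 was at 3.30, 2.39 and 2.63 CPM in WT and 0.940, 0.910 and 0.739 CPM in ARID1A-KO (-1.69 ± 0.19, adjusted p = 0.000152). RefSeq lists its name as a synonym of SYNE3, the gene of the nuclear envelope protein nesprin-3, and the SYNE3 row of the tables also fell, by 1.30.

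LINC00704, now MANCR (mitotically associated long noncoding RNA), is known for high levels in aggressive breast cancer. It was at 11.0, 19.7 and 14.9 CPM in WT and 5.55, 5.04 and 5.89 CPM in ARID1A-KO, with WT samples spread more widely than ARID1A-KO samples and no overlap, and it fell by 1.47 ± 0.19 (adjusted p = 0.000375). AKR1E2, its nearest coding gene, was higher by 0.85. LINC00707, which lies on the same chromosome at chr10:6821560-6884868 and has been studied in several carcinomas, was at 33.9, 42.7 and 37.8 CPM in WT and 26.3, 23.4 and 15.1 CPM in ARID1A-KO. All ARID1A-KO values lay below the WT values, replicate 5 the lowest, and the log2 fold change was -0.82 ± 0.18 (adjusted p = 0.00637). LINC00601 was at 18.7, 19.3 and 28.1 CPM in WT and 11.2, 10.8 and 11.5 CPM in ARID1A-KO (-0.98 ± 0.15, adjusted p = 0.000911). Its nearest coding gene, the metalloprotease gene ADAM12, fell as well, by 0.71.

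LINC00452 was the most abundant LINC gene with a fall of this size. It was at 132, 136 and 142 CPM in WT and 68.7, 69.3 and 80.7 CPM in ARID1A-KO, which is 109 and 58.2 TPM on average. The log2 fold change was -0.91 ± 0.08 (adjusted p = 3.09e-05). It lies at chr13:114586640-114626485 on the plus strand, next to GAS6, the gene of a ligand of the TAM receptor tyrosine kinases, which fell by 0.50. Beside both lies LINC00565, now SWINGN, whose name stands for a SWI/SNF interacting noncoding RNA of the GAS6 enhancer. SWINGN, named here after its values were seen, was low, at 0.420, 0.634 and 0.378 CPM in WT and 0.308, 0.200 and 0.205 CPM in ARID1A-KO. It fell by 1.01 ± 0.31 (adjusted p = 0.0296), but the forward-strand reads in it came to 149% of the reverse-strand reads. The call was lost without WT replicate 4 (-0.75, adjusted p = 0.109) and without ARID1A-KO replicate 4 or 5. Genes within 5 Mb of LINC00452 and SWINGN had a median log2 fold change of -0.35. On the same chromosome, LINC00431 fell by 0.80 ± 0.21 (adjusted p = 0.017), while LINC00552 rose by 0.78 ± 0.23 (adjusted p = 0.0244), its call being lost in 4 of the 6 fits that left out 1 sample (WT replicate 3 or 5, ARID1A-KO replicate 3 or 4). The LINC00431 call was lost without WT replicate 3 (-0.59, adjusted p = 0.0613), without ARID1A-KO replicate 4 (-0.80, adjusted p = 0.0515) and relative to its neighbours.

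The falls named by rule were completed by LINC00898 (-0.85 ± 0.16), LINC00242 (-0.81 ± 0.19) and LINC00669, now MIR924HG (-0.65 ± 0.14). LINC00242 was no longer called relative to its neighbours, whose median was -0.48, nor with unstranded counts, its forward-strand reads coming to 131% of its reverse-strand reads. Other abundant members fell by less. LINC01021, now PURPL, a p53-induced RNA that is known to hold down p53 levels, was at 48.8, 38.8 and 45.6 CPM in WT and 28.1, 26.7 and 37.3 CPM in ARID1A-KO. The genotypes did not overlap although ARID1A-KO replicate 5 came close to WT replicate 4, and the log2 fold change was -0.53 ± 0.13 (adjusted p = 0.0121). LINC01029 changed by the same amount, from 96.5 to 66.3 TPM.

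The largest rise among well-measured members was that of LINC01088. It was at 0.600, 0.648 and 0.790 CPM in WT and 2.17, 1.89 and 5.08 CPM in ARID1A-KO. All ARID1A-KO samples were above all WT samples, and replicate 5 stood above the other ARID1A-KO samples. The log2 fold change was 2.18 ± 0.38 (adjusted p = 0.00184), and 1.59 without ARID1A-KO replicate 5. LINC01059 was at 0.465, 0.493 and 0.515 CPM in WT and 1.62, 1.69 and 1.22 CPM in ARID1A-KO (1.61 ± 0.20, adjusted p = 0.000297). RefSeq lists its name as a synonym of GRAMD1B, a gene of a cholesterol transfer protein, and the GRAMD1B row rose by 0.52. LINC00863 rose by 0.88 ± 0.19 but shares near-identical stretches with the NUTM2 genes.

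The smallest adjusted p among the members that rose belonged to LINC00958. It was at 61.5, 64.4 and 63.6 CPM in WT and 95.3, 89.1 and 88.6 CPM in ARID1A-KO, with little spread within either genotype. The log2 fold change was 0.53 ± 0.06 (adjusted p = 0.000155). LINC00992 was at 1.12, 0.916 and 1.07 CPM in WT and 1.89, 1.82 and 1.90 CPM in ARID1A-KO, without overlap (0.86 ± 0.16, adjusted p = 0.00261). LINC01060 was at 3.85, 3.85 and 3.97 CPM in WT and 6.87, 6.84 and 5.48 CPM in ARID1A-KO (0.72 ± 0.13, adjusted p = 0.00232). The remaining rises named by rule, LINC00337, LINC00858, LINC00910 and LINC00520, had log2 fold changes between 0.71 and 0.75. The LINC00858 call was lost relative to the neighbours within 5 Mb, whose median was 0.28. The LINC00520 call was lost in the same way, with TPM values, without WT replicate 3 (0.71, adjusted p = 0.0669) and without WT replicate 4 (0.63, adjusted p = 0.056).

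**Figure D2:**
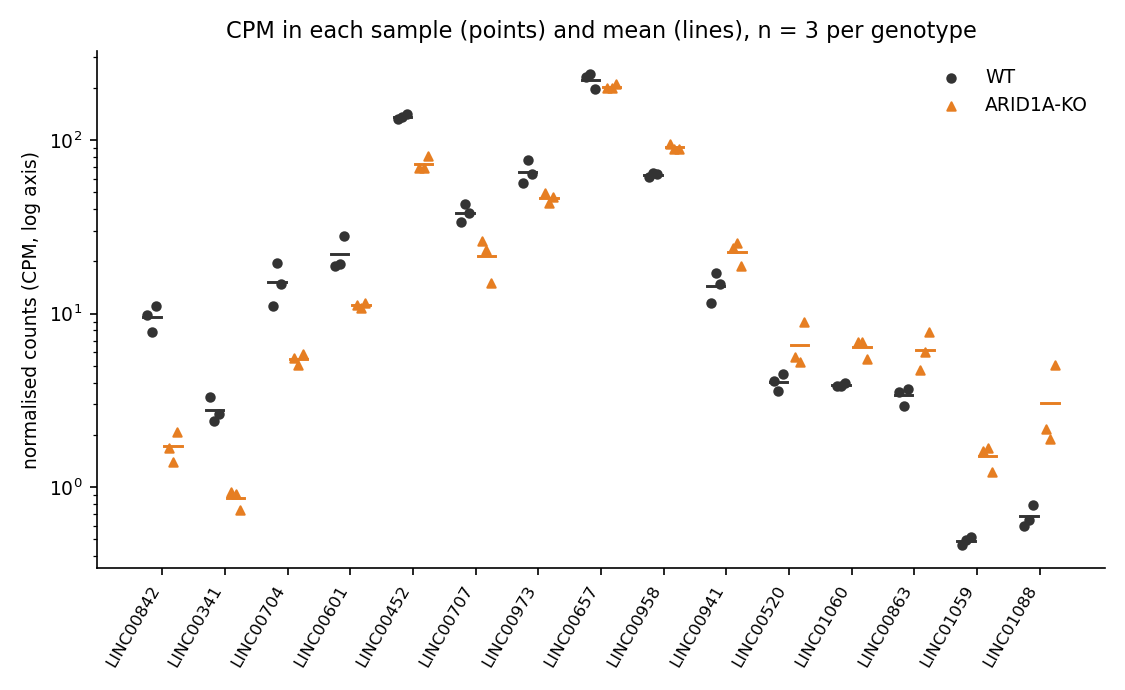
Normalised counts in CPM (log axis) of 15 LINC genes in each of the 3 WT (black circles) and 3 ARID1A-KO samples (orange triangles), with lines at the means. The genotypes overlap for LINC00657 (NORAD), which was not called, and do not overlap for the other 14 genes.

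A few LINC genes were close to the limit of detection in 1 genotype. LINC00355 had counts in every WT sample, at 0.764, 0.845 and 0.773 CPM, and 0 counts in all 3 ARID1A-KO samples. Against a floor of 3 counts over the ARID1A-KO group, its level was at least 56.0-fold lower there than in WT, where 156 counts were found. The tested genes within 5 Mb, only 5 of them, had a median log2 fold change of -0.78. LINC00355 shares a near-identical stretch with HIF1A-AS3. The floor covers counting error only. A separate cut at 1 TPM is no limit of detection. By it, 5 members were at 1 TPM or more in every WT sample and below it in every ARID1A-KO sample. Another 4 members were the reverse, and the share over all genes was not counted. The first group held LINC00355, LINC01085, LINC00942, LINC00589 and LINC00898, and the second LINC00638, LINC00701, LINC01059 and LINC01088. Some lay close to the cut. LINC00638 was at 0.891, 0.859 and 0.934 TPM in WT and 1.32, 1.18 and 1.34 TPM in ARID1A-KO. Its call was lost in all 6 fits that left out 1 sample, and that of LINC00589 in 3 of them.

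The following low members were picked for the size of their change after the values were seen. LINC01085 was at 1.45, 1.0 and 2.78 CPM in WT and 0.0294, 0.0364 and 0.0341 CPM in ARID1A-KO (-5.63 ± 0.54, adjusted p = 6.64e-05). It is now annotated as a pseudogene and overlaps KLF17P2 and RP11-669M16.2 on its own strand, so its reads may be shared with these. Genes within 5 Mb had a median log2 fold change of 0.03. LINC00942 was at 0.824, 1.42 and 0.790 CPM in WT and 0.206, 0.182 and 0.114 CPM in ARID1A-KO (-2.63 ± 0.34, adjusted p = 0.000375), although its forward-strand reads came to 93.6% of its reverse-strand reads. The member with the largest rise was LINC00326, at 0.0150, 0.0704 and 0.0344 CPM in WT and 0.778, 0.764 and 1.65 CPM in ARID1A-KO (4.67 ± 0.53, adjusted p = 0.000169), with a log2 fold change of 5.39 without WT replicate 4. LINC00922 was at 0.165, 0.211 and 0.155 CPM in WT and 0.646, 0.564 and 0.579 CPM in ARID1A-KO (1.73 ± 0.25, adjusted p = 0.000664), in a region where other genes had a median of 0.53. LINC00639 (-3.25 ± 0.45), LINC00911 (-2.15 ± 0.34), LINC00880 (-2.1 ± 0.47) and LINC00652 (-1.76 ± 0.32) fell as well, and LINC00482 (2.77 ± 0.46), LINC00701 (1.56 ± 0.39) and LINC00324 (1.49 ± 0.35) rose, each of them at or below 1 CPM in every sample. These members kept their calls in all 6 fits that left out 1 sample.

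A list of 30 LINC RNAs that have been studied in tumours held 20 members, all of them tested. Of these, 5 rose and 3 fell, which is 8 of 20 called and none by 2-fold or more, with a median log2 fold change of 0.01. Over all genes tested, 36.2% were called and 10.8% were called by 2-fold or more. Another 5 genes of the list were tested that are no members by the naming rule or its count threshold, 4 of them under clone names and LINC00346 with its 58 counts. Of these, LINC01638 fell by 3.62 ± 0.39 (47.1 to 3.74 TPM, adjusted p = 0.000134) and LINC01234 rose by 2.11 ± 0.20 (0.257 to 1.1 TPM, adjusted p = 6.64e-05), so the list as a whole had 10 of 25 called. Besides LINC00958, the ones that rose were LINC00337, LINC00520, LINC00668 and LINC00941. LINC00941 was at 11.5, 17.2 and 14.8 CPM in WT and 23.8, 25.5 and 18.9 CPM in ARID1A-KO (0.65 ± 0.16, adjusted p = 0.0103). LINC00668 was at 10.6, 10.1 and 10.5 CPM in WT and 14.2, 14.2 and 12.4 CPM in ARID1A-KO (0.39 ± 0.09, adjusted p = 0.00844). Both were separate between genotypes. The ones that fell were LINC00707, LINC00511 and LINC00662. LINC00511 was at 11.2, 10.2 and 12 CPM in WT and 7.02, 6.91 and 7.37 CPM in ARID1A-KO, a clear separation (-0.65 ± 0.10, adjusted p = 0.000987). LINC00662 was at 35.5, 35.3 and 33.4 CPM in WT and 29.4, 29.4 and 24.6 CPM in ARID1A-KO (-0.32 ± 0.08, adjusted p = 0.015), and with an offset for exonic length it was not called (adjusted p = 0.0658).

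The other 12 members of the tumour list had log2 fold changes between -0.47 and 0.43 and were not called. The most abundant was LINC00963, at 113, 105 and 105 CPM in WT and 109, 114 and 122 CPM in ARID1A-KO (0.10 ± 0.06, adjusted p = 0.283), but with an offset for exonic length it was called higher (0.29, adjusted p = 0.00737). CYTOR (LINC00152), a cytoplasmic RNA with a near-identical copy in MIR4435-2HG, was at 75.6, 75.8 and 84.8 CPM in WT and 100, 85.5 and 76.7 CPM in ARID1A-KO (0.15 ± 0.10, adjusted p = 0.257). LINC00839 was at 35.2, 37.2 and 35.5 CPM in WT and 37.4, 36.1 and 34.9 CPM in ARID1A-KO (0.00 ± 0.06). The genotypes overlapped for all 3 of these. Among 30 better known lncRNAs with functional names, 26 had a row under a name that is not of the LINC kind. Of these, 24 were tested, and 5 rose and 8 fell, where 17.8% of all genes tested were called higher and 18.4% lower. H19, an imprinted RNA of fetal growth, was at 3.79 ± 1.10 TPM in WT and 20.6 ± 3.92 TPM in ARID1A-KO (SD, n = 3).

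LINC genes and their nearest coding gene were compared pair by pair, as a description without a test, since both come from the same libraries and share regional shifts. The median distance between the starts was 66414 bp. In 32 of the 169 pairs both genes were called, and in 20 of these 32 (62.5%) they changed in the same direction. Spearman's rho across the 169 pairs was 0.27. For the 95 pairs with starts within 100 kb, 20 had both genes called, 14 of them in the same direction, and rho was 0.35. Pairs of neighbouring genes in general were not counted, so these values do not set LINC genes apart from other genes.

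**Figure D3:**
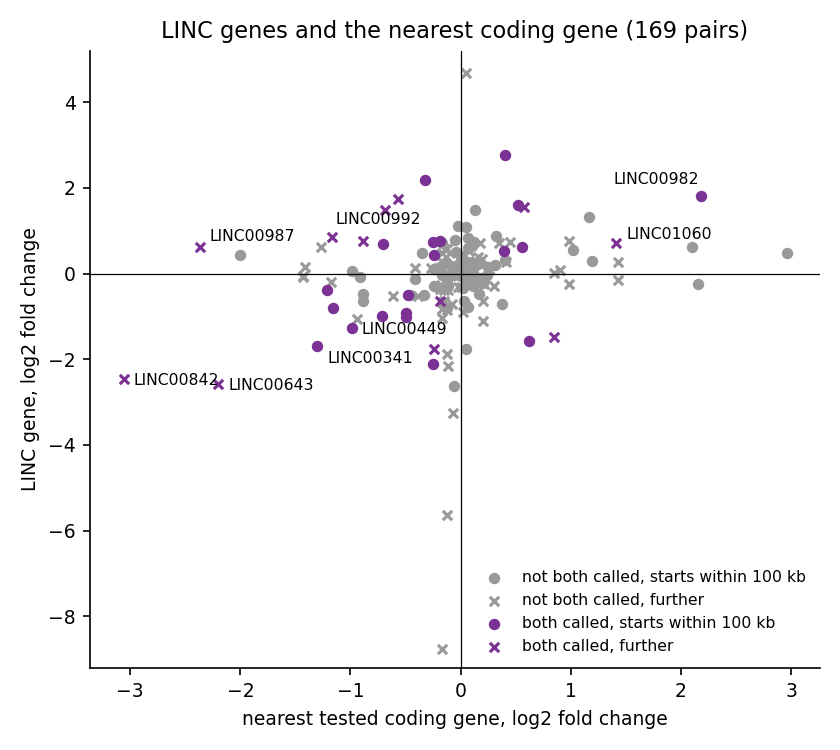
Log2 fold change of each tested LINC gene against that of the nearest tested protein-coding gene (169 pairs), with circles for starts within 100 kb, crosses for more distant pairs and purple for pairs in which both genes were called. Of the 32 purple pairs, 20 lie in the lower left or upper right part, where both genes moved the same way.

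A divergent LINC gene starts within 2000 bp of a coding gene on the other strand, so the pair shares a promoter region. Of 13 tested members of this kind, 4 were called (30.8%), against 36.2% of all genes tested. LINC00982, now PRDM16-DT, starts 731 bp from PRDM16, the gene of a zinc finger transcription factor known for its role in brown fat. The LINC gene was low, at 0.165, 0.141 and 0.0344 CPM in WT and 0.367, 0.400 and 0.466 CPM in ARID1A-KO, without overlap. It rose by 1.81 ± 0.40 (adjusted p = 0.00711), and PRDM16 rose by 2.18 ± 0.16 (adjusted p = 1.73e-05). LINC00449 starts 365 bp from TM9SF2, and both fell, the LINC gene by 1.26 ± 0.43 (adjusted p = 0.0475) and TM9SF2 by 0.99 ± 0.07 (adjusted p = 9.36e-06), in a region with a median of -0.92. LINC00449 rested on 87 counts in all, its forward-strand reads came to 152% of the reverse-strand reads, and its call was lost in 5 of the 6 fits that left out 1 sample, all but the fit without WT replicate 4. The smallest fall in these fits was -0.79, without WT replicate 5. The call was also lost relative to its neighbours (-0.34, adjusted p = 0.586) and with DESeq2 (adjusted p = 0.103).

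The other divergent pairs did not move together. LINC00337, now ICMT-DT, was at 1.05, 0.873 and 0.842 CPM in WT and 1.60, 1.36 and 1.68 CPM in ARID1A-KO, all ARID1A-KO samples being above all WT samples. It rose by 0.75 ± 0.18 (adjusted p = 0.00874), while ICMT, the gene of a protein carboxyl methyltransferase that starts 268 bp away, fell by 0.19 ± 0.06 (adjusted p = 0.0331). LINC00893, now EOLA1-DT, fell by 0.78 ± 0.22 (adjusted p = 0.0225), and its partner CXorf40A had a log2 fold change of 0.07 ± 0.13 that was not called. The LINC00893 call was lost without WT replicate 3 (-0.63, adjusted p = 0.085), without ARID1A-KO replicate 3 (-0.74, adjusted p = 0.0718), without ARID1A-KO replicate 4 (-0.76, adjusted p = 0.0717) and with DESeq2 (-0.78, adjusted p = 0.0756). In the 9 divergent pairs whose LINC gene was not called, the coding partner was not called either.

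Of the more distant pairs, chosen after their values were seen, LINC00643 fell by 2.57 ± 0.40 (adjusted p = 0.00096) and SYT16, a synaptotagmin gene, by 2.20. LINC00643, now annotated as the pseudogene SERTAD4BP, rested on 92 counts in all. It overlaps RP11-355I22.6 on its own strand and shares a near-identical stretch with another gene. LINC01060 rose together with TRIML2, which had a log2 fold change of 1.41. In the opposite sense, LINC00987 rose by 0.62 ± 0.15 (adjusted p = 0.0125) where A2M, the gene of the protease inhibitor alpha-2-macroglobulin, fell by 2.37. The LINC00987 call was lost without ARID1A-KO replicate 4 (0.58, adjusted p = 0.0547).

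The start windows of the members, 250 bases before the annotated start and 50 bases from it, were read from GRCh37 and searched on both strands for short motifs. AP-1 factors such as FOS and JUN bind at enhancers and promoters through the letters TGANTCA, in which N is any base, and their sites are often where SWI/SNF complexes work. This motif, which reads the same on both strands apart from N, was in the windows of 22 of the 169 tested members (13%), against 6.32% of all genes tested and 5.67% of coding genes. It was in 4 of the 32 members that rose (12.5%), 6 of the 35 that fell (17.1%) and 12 of the 102 that were not called (11.8%). The shares of the called groups rest on 4 and 6 genes. The windows of the members were also poorer in CG, with a median GC content of 54.7% against 60%, and 37.3% of them held 15 or more CG dinucleotides, against 57.8% of all genes. GGAATG, the letters of TEAD factors, was in 10.7% of member windows and 12.8% of all windows, TATAAA in 9.47% and 9.23%, and the CRE motif TGACGTCA, which has no overlap with TGANTCA, in 0.592% and 2.18%. A match of letters is no evidence that a factor binds there.

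**Figure D4:**
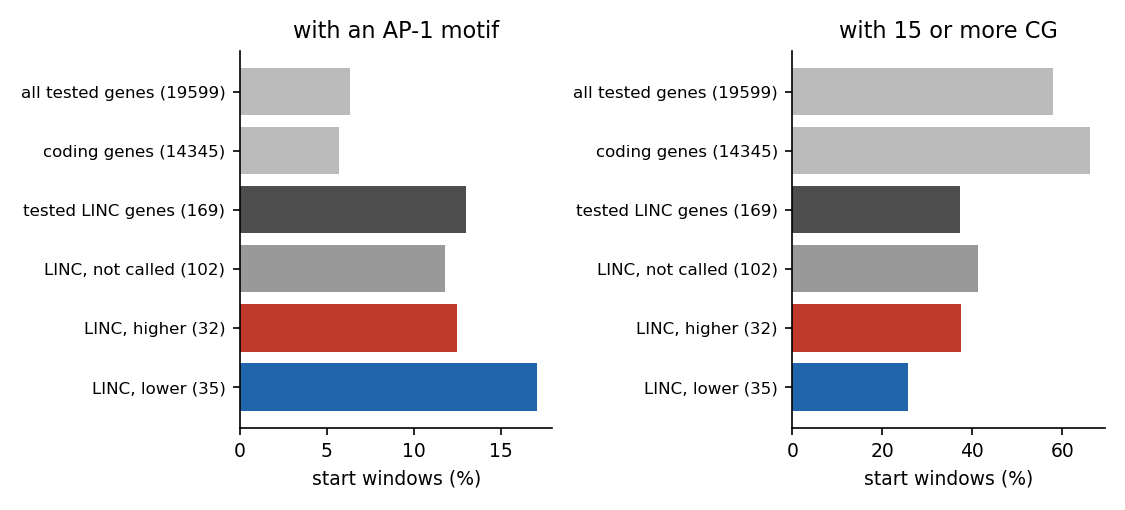
Share of start windows (300 bases, in %) that hold the AP-1 motif (left) and 15 or more CG dinucleotides (right), with the number of genes in each group in brackets. The AP-1 bar of all tested LINC genes is 13% and that of all tested genes 6.32%, while the CG bars are 37.3% and 57.8%.

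The windows of 5 called members with the motif are shown because they are the members that the results above turn on or, for LINC00883, a contrast in CG content. All are written 5' to 3' on the strand of the gene in GRCh37, the motif is in capitals, and the annotated start is the base at position 251.

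LINC00704 (MANCR, -1.47), chr10:4720297-4720596, minus strand: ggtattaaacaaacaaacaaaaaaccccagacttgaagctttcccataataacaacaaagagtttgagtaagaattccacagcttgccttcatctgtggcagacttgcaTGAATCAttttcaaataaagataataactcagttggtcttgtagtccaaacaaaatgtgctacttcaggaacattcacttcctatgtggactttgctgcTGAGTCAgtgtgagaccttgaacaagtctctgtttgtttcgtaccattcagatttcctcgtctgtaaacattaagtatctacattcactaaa
LINC00601 (-0.98), chr10:128110399-128110698, minus strand: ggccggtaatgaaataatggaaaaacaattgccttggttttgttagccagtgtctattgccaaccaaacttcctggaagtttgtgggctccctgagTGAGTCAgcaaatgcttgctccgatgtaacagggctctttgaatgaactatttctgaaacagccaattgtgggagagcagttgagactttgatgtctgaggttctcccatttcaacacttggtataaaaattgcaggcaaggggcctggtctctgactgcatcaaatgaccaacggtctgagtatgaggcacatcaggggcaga
LINC00973 (-0.50), chr3:98699652-98699951, plus strand: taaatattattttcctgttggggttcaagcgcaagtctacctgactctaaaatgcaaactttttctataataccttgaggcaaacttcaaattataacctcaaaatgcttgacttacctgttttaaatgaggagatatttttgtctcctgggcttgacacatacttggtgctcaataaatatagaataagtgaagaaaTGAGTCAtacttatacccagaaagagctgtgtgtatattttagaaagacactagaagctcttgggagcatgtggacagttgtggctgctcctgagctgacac
LINC00883 (DUBR, -0.65), chr3:106959289-106959588, plus strand: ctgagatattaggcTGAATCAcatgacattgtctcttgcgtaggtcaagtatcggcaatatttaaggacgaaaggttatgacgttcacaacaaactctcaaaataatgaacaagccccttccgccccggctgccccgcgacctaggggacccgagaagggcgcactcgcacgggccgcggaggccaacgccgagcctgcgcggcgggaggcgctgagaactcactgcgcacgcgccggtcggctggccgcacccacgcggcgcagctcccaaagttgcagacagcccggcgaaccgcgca
LINC01059 (1.61), chr11:123324856-123325155, plus strand: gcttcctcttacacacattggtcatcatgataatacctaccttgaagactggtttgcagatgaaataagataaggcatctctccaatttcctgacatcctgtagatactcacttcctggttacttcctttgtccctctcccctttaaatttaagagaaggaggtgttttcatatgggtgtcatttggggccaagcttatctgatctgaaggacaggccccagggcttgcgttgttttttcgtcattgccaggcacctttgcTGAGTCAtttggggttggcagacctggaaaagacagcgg

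LINC00704 held the motif at 2 places and the others at 1. The windows of LINC00704, LINC00601, LINC00973 and LINC01059 held only 1 to 3 CG dinucleotides each, whereas the window of LINC00883 held 33. LINC00883, now DUBR, is an RNA first described upstream of the Dppa2 gene. It was at 14.1, 12.4 and 13.9 CPM in WT and 8.09, 8.12 and 9.45 CPM in ARID1A-KO, without overlap, and fell by 0.65 ± 0.10 (adjusted p = 0.00111). The motif thus stood in windows of members that fell and of LINC01059, which rose.

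By coordinates, 4 members hold an annotated miRNA gene inside their interval on the same strand, and these are called hosts here. Members with a host name but no such miRNA row, such as LINC00669 (MIR924HG), are not counted. LINC00478, now MIR99AHG, carries the miR-99a, let-7c and miR-125b-2 cluster, miRNAs that restrain growth-promoting genes in many cell types. It was low, at 0.450, 0.352 and 0.464 CPM in WT and 0.103, 0.0910 and 0.136 CPM in ARID1A-KO, and all WT samples were above all ARID1A-KO samples. It fell by 1.88 ± 0.30 on the log2 scale (adjusted p = 0.00122). Libraries of this kind do not measure mature miRNAs, so their level was not tested. The mature 5' arms, from RefSeq and with the seed (bases 2 to 8) in capitals, have 3 different seeds, and the letters are shown as those of the products that the host transcript carries.

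hsa-miR-99a-5p: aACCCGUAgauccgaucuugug
hsa-let-7c-5p: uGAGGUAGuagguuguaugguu
hsa-miR-125b-5p: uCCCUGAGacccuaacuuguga

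The second of the hosts by coordinates to be called was LINC00969, now MUC20-OT1. It carries miR-570 and shares near-identical stretches with SDHAP pseudogenes. It was at 43.5, 42.5 and 34.4 CPM in WT and 29.4, 29.9 and 32.7 CPM in ARID1A-KO, close to each other at the nearest samples but without overlap (-0.39 ± 0.10, adjusted p = 0.0116). MUC20, which overlaps it on the same strand, fell by 1.21. The hosts LINC00925 (miR-9-3) and LINC01057 (miR-378g) were not called.

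The symbols cover genes of several kinds by present annotation. Of the 172 members, 155 matched a gene of the newer annotation, 131 of them of lncRNA type, 10 pseudogenes and 14 protein-coding, and 37 carried a new name. Of 13 tested members that are now coding genes, INAFM2 and TUNAR rose and none fell, and their log2 fold changes ranged from -0.28 to 1.49. TUNAR (LINC00617), a neural RNA that also codes for a small protein, was at 0.210, 0.620 and 0.189 CPM in WT and 1.12, 1.18 and 0.659 CPM in ARID1A-KO (1.49 ± 0.43, adjusted p = 0.0233). WT replicate 4 and ARID1A-KO replicate 5 came close to each other, the log2 fold change was 2.27 without WT replicate 4, and the call was lost without WT replicate 3 or 5 (1.22 in both fits) and without ARID1A-KO replicate 3 or 4. Among the 130 tested members of lncRNA type, 58 were called (44.6%), against 36.2% of all genes tested. Near-identical stretches in another gene were found for 33 members, 12 of which were called (36.4%). By position, 144 tested members were intergenic, of which 56 were called (38.9%), while 7 overlapped a coding gene on the same strand and 5 on the opposite strand, of which 4 and 3 were called. Genes that overlap on the same strand cannot be told apart by these counts.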

How the data were processed

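Samples were grouped by the genotype in the labels, with 3 in each. In the Roddy workflow of the authors, STAR placed the read pairs on hg19/GRCh37 and featureCounts made the raw counts of each gene, which were deposited as whole numbers. The paper names an annotation v.29 lift 37, but the deposited counts hold other names for some genes, such as AC093609.1 for LINC02580. Whether the counts rest on that annotation was not tested, and membership here follows the names in the counts. Versions of the tools are not given in the sources used here. The labels give polyA RNA as the molecule, while the protocol names a stranded total RNA kit. TPM values were also deposited, which the authors had scaled to the length of each gene and the total of a sample. Levels between genes were compared on the TPM of the reverse-stranded counts.

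Reverse-stranded counts were used because the forward-stranded counts came to only 5.83% to 6.15% of them. After filterByExpr and TMM normalization, genotypes were compared with edgeR's quasi-likelihood test in edgeR 4.0.16 (R 4.3.3) over the whole table, with all 6 samples, no covariate and Benjamini-Hochberg adjustment. The common coefficient of variation between replicates was 0.111, and every pair of samples differed by more than counting noise (chi-square per gene 7.38 to 132). The fits were tested on simulated data. Near-identical copies were found with BLAST 2.17.0 (97% identity, 200 bases or more), and current names and types came from GENCODE v44 lifted to GRCh37. Of the identifiers, 17 members had no match there. Mature miRNA sequences came from RefSeq. The start windows of some members are not reported here.

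The members and the gene lists were chosen with earlier results of these data known. Genes were named as the 10 largest rises and 10 largest falls among called members without overlap whose mean log2 CPM exceeded 0, the 6 members of highest TPM, members at 0 counts in 1 genotype, called members of the tumour list with 3 abundant ones not called, called divergent members, the smallest adjusted p in each direction, the neighbours of the count threshold and LINC names of the table of breaks, and others are marked as chosen after their values were seen. Alternatives included DESeq2 1.42.0, RLE normalization, unstranded counts, other count filters, TPM with limma 3.58.1 (log2 with 0.1 added), offsets on exonic length and on the median change within 5 Mb, the replicate number as a block, leaving out each sample, a threshold of 0.01 on the adjusted p, and other membership and distance limits.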

Additional observations from a re-analysis of the deposited data

How the results depend on the processing

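The number of called members ranged from 50 (at least 10 counts in every sample, 133 tested) to 77 (no filter) over the alternatives that kept all 6 samples, the membership and the threshold, against 67. DESeq2 called 65, of which 60 were shared with edgeR. Leaving out 1 sample gave 49 to 67 called, and an offset on the median change within 5 Mb gave 67, of which 56 were the same. An adjusted p under 0.01 left 40 called, 16 of them higher. Members with at least 300 counts gave 44 called, 20 lower and 58 without overlap, since fewer genes (108) entered. Of the 25 pairs with starts within 10 kb, 4 had both genes called, 3 of them in the same direction. The numbers of the replicates do not pair the samples, with correlations of -0.177, 0.268 and 0.18 between same-numbered samples, and with the replicate number as a block 69 members were called. The median log2 fold change stayed between -0.042 and 0.023.

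For the named genes, 509 of 552 values kept their direction and their side of the threshold, 31 lost the call, 3 gained it and 9 changed sign. All 9 were of LINC00839 and LINC00998, which were not called with all 6 samples and no offset. LINC00839 was at -0.00 with TPM and with no filter, -0.06 with the length offset, -0.16 with the regional offset, -0.02 without ARID1A-KO replicate 3 or WT replicate 3, and -0.01 without WT replicate 5, the fits without 1 sample ranging from -0.02 to 0.03. LINC00998 was at 0.21 with the regional offset, where it was called higher (adjusted p = 0.0306), and 0.00 without WT replicate 4, with -0.08 to 0.00 over the fits without 1 sample. The cause was not tested.

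Members at low counts had wide errors. The 3 members that were not tested missed the count filter, which asks for enough counts in enough samples. With no filter, all 172 members entered the fit.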

Other observations

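Of the LINC-named genes under the threshold of 60 counts, 8 passed the filter for the test. Of these, 3 were called, all lower in ARID1A-KO, where 36.2% of all genes tested were called and 18.4% were called lower. These 3 genes passed the filter through their WT counts, so their direction is tied to how they entered the test. No result about LINC genes is drawn from it. LINC00276 had 15, 17 and 11 counts in the WT samples and 1, 0 and 2 counts in the ARID1A-KO samples (log2 fold change -3.79 ± 0.56, adjusted p = 0.000787). LINC00607 had 10, 25 and 11 counts in WT and 4, 1 and 5 counts in ARID1A-KO (-2.26 ± 0.53, adjusted p = 0.00863). LINC00028, just outside the threshold, had 15, 11 and 14 counts in WT and 9, 3 and 7 in ARID1A-KO (-1.17 ± 0.41, adjusted p = 0.0492). Of the LINC genes that the study lists beside double-strand breaks, LINC00271 had 19 counts and LINC02580 (AC093609.1 in the tables) 2 counts in all samples together, and neither was tested. LINC01204, which has a clone name in the tables and is therefore no member, had 5576 counts and rose by 1.67 ± 0.20 (adjusted p = 0.000219).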
